A study of Rattus norvegicus with 8 samples.

Results

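The genes described are those of the cell division cycle and mitosis, in rat sciatic nerve. They were selected by symbol from a list of 53 names, keeping each gene that had a normalized count above 0 in any library. Of these names 50 were found, of 22798 genes with a read, and each of the 50 passed the filter of the test (2 or more libraries with a normalized count of 10 or higher). No member lay near the limit of 0: the member with the smallest maximum was Cdt1, at 311 normalized counts. Ccnb2, E2f1 and Chek1 had no entry under those symbols and are not analysed here. The names were proposed with earlier results of these data known, and genes such as Top2a, Cenpf, Cdk1 and Prc1 stood among the leading differences from unoperated nerve. Differences of the members from unoperated nerve are therefore given as a description, without a test.

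The study asked how the transcriptome of a peripheral nerve allograft (PNA) repaired by PEG-fusion differs from that of a PNA repaired by suture alone. In PEG-fusion, polyethylene glycol (PEG) is applied to closely apposed cut axons so that their membranes join. Libraries of poly-A RNA were made from 3 PEG-fused PNAs (PEG), from 3 negative control PNAs that received no PEG (NC), both excised at 14 days PO (postoperatively), and from 2 unoperated sciatic nerves (Unop). All animals were outbred female Sprague Dawley rats of 3 to 6 months. Hosts and donors of both PNA groups were neither tissue matched nor immunosuppressed, and both groups were washed with hypotonic saline and methylene blue and sutured. A PNA holds cells of the donor and cells that entered from the host, which these libraries do not separate, and the Unop group rests on 2 nerves.

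A dividing cell passes from G1 into S phase, in which cyclin E and the E2F factors switch on the enzymes of DNA synthesis. Origins are licensed by the MCM helicase, the DNA is copied, and CDK1 with cyclins A and B then drives the cell into mitosis. There the kinetochores attach chromosomes to the spindle, the checkpoint kinases wait for attachment, the anaphase-promoting complex destroys the cyclins, and the contractile ring parts the daughter cells. In resting nerve few cells divide, whereas after injury Schwann cells, fibroblasts, macrophages and endothelial cells are known to do so, as are T cells in a rejected graft.

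Depth lay between 32472925 and 39959620 reads on genes per library. Schwann cell markers were present in all libraries, and S100b was at 4875 normalized counts or more in each. The NC PNAs differed among themselves in skeletal muscle: the sum of 5 muscle markers was 523480 and 184882 normalized counts in NC1 and NC3, 9541 in NC2 and between 2433 and 13644 in PEG. The 10 T cell markers summed to between 2234 and 6220 in PEG, to between 25000 and 46814 in NC, and to 551 and 305 in Unop.

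All 50 members were on average higher in PEG than in Unop and higher in NC than in Unop. Every PEG library lay above every Unop library for 50 of 50 members, where this held for 37.3% of all 16478 tested genes. NC lay wholly above Unop for 49 members, where this held for 37.2% of all tested genes, and the exception was Pcna. The median log2 fold change of the members was 3.67 for PEG against Unop and 3.38 for NC against Unop, beside 0.01 and 0.02 over all tested genes. These values follow from how the list was drawn up and describe it. In tissue of mixed cells, more dividing cells and more of these transcripts per cell cannot be told apart.

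The members differed widely in how far they stood above Unop. Cenpf, a large protein of the kinetochore, had the largest log2 fold change, 5.98 in PEG and 5.47 in NC. Bub1b, a checkpoint kinase, had log2 fold changes of 5.57 and 5.14. At the other end Pcna, the sliding clamp of DNA polymerase, which also serves DNA repair, had log2 fold changes of 0.22 and 0.23, and the MCM subunit Mcm7 had 0.83 and 0.89. Melk, a mitotic kinase, was nearly absent from Unop, with 22 and 3 reads, so that its difference from Unop is poorly defined.

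**Figure D1:**
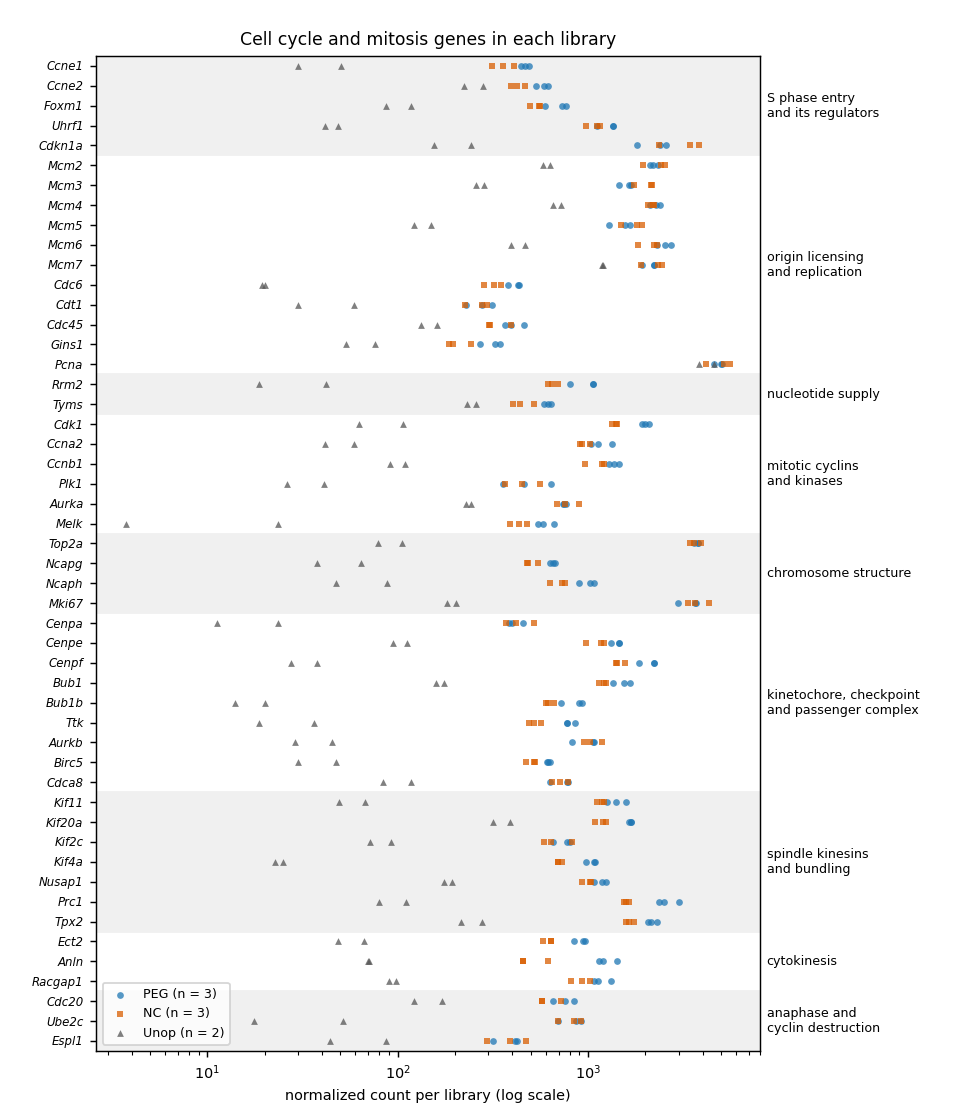
Each row is a member, grouped by role, and each point is its normalized count in 1 library on a log scale (PEG and NC n = 3, Unop n = 2). All members except Pcna have their 6 PNA libraries above both Unop libraries, and most PEG and NC points lie close to each other by comparison.

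Promoter sequences are shown because the members that moved together from Unop fall into groups that differ in how often they carry certain short motifs. RefSeq promoters (GRCr8, 250 bases before to 50 after the annotated start) were matched to 40 of the 50 members, 43 promoters in all. The motifs searched, on both strands, were the CCAAT box (CCAAT), the cell cycle homology region or CHR (TTTGAA), and an E2F site (any of TTTCGCGC, TTTGGCGC, TTTCCCGC, TTTGGCGG, TTTCCCGG and TTTGCCGC). As background, the CHR is read by the MuvB complexes of late cell cycle genes and the E2F site by the E2F factors of S phase genes. Below, 180 bases from 150 before the start are given 5′ to 3′ on the gene's strand, with all motif matches in capitals. The first 5 are mitotic genes and the last 2 replication genes, at chrX:69761733-69761912 (plus strand), chr1:143659331-143659510 (plus strand), chr13:103760857-103761036 (minus strand), chr20:19265143-19265322 (plus strand), chr10:84473064-84473243 (minus strand), chr9:30733717-30733896 (minus strand) and chr19:13488663-13488842 (plus strand).
Kif4a: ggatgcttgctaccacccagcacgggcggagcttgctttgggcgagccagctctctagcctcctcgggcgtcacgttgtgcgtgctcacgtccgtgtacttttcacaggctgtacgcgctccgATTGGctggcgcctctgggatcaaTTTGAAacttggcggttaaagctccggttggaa
Prc1: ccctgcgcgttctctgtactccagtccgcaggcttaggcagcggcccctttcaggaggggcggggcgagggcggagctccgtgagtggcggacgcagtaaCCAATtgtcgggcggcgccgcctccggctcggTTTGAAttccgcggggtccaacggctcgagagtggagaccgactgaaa
Cenpf: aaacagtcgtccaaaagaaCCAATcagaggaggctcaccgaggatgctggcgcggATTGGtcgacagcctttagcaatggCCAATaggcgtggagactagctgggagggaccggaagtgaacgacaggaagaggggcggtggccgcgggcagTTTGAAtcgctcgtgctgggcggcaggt
Cdk1: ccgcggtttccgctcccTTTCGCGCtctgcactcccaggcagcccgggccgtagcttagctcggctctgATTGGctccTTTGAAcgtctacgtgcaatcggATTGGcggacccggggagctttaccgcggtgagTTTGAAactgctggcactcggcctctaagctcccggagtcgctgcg
Top2a: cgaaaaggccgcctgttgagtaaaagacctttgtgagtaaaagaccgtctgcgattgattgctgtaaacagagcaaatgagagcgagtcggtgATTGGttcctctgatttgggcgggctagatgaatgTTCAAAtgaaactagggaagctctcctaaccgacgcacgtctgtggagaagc
Mcm3: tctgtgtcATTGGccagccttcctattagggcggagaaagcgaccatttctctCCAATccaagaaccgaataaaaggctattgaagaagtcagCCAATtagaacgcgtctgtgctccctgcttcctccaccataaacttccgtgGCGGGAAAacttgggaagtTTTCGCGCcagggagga
Mcm5: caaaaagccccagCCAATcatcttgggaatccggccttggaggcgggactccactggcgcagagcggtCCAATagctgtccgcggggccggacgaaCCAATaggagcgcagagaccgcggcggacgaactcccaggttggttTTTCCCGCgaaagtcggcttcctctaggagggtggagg

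In Kif4a, Prc1 and Top2a the CHR began 3, 18 and 22 bases before the start, each with a CCAAT box further upstream. Cdk1 held a CHR 16 bases before the start and also an E2F site, 133 bases before it. The CHR was found in 18 of 28 promoters (64.3%) of members with mitotic roles and in 1 of 15 (6.67%) of members with S phase roles, beside 18.3% of all 33469 promoters of the same length. The E2F site had the opposite distribution, in 10 of 15 S phase promoters (66.7%) and 2 of 28 mitotic promoters (7.14%), beside 4.03% of all promoters. It stood in 8 of 9 promoters of licensing and replication members but in only 1 of 5 of S phase entry members. Uhrf1 and Kif2c each entered these counts with more than 1 promoter. CCAAT boxes were common to both groups, in 66.7% of S phase and 71.4% of mitotic promoters against 37.5% of all. A CHR together with a CCAAT box stood in 57.1% of the mitotic promoters, in none of the 15 S phase promoters and in 7.41% of all. These matches are letters in a window and do not show that a factor binds there.

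PEG against NC was the comparison tested, in limma over all genes with Benjamini-Hochberg adjustment. It used the same PNA libraries as the differences from Unop that were known when the names were proposed. The counts below are therefore not independent of how the list was drawn up. At an adjusted p under 0.05, 10 of the 50 members (20.0%) were higher in PEG, where 15.0% of all tested genes were. No member was called lower, where 13.9% of all tested genes were, and 22 members passed an unadjusted p under 0.05. On whole reads recovered from the normalized counts, edgeR called 16 members higher and DESeq2 18, where they called 15.5% and 16.9% of all tested genes higher. Each called 1 member lower, Mcm3, where they called 14.7% and 16.8% of all tested genes lower. Counts of calls depended on the libraries: 4 of the 50 members were called higher without PEG2, PEG3 or NC3, where 8.28%, 9.76% and 11.9% of all genes were, a smaller share of the members than of all genes in each case. The count was 7 without PEG1 or NC2 (11.1% and 11.3% of all genes), 8 without NC1 (13.7%) and 18 without either Unop nerve (16.0% in each case). Kif20a, Kif4a, Prc1 and Anln were called in all 17 alternative fits, but with a log2 fold change past 1 also required only Anln was.

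The log2 fold change was above 0 for 40 of the 50 members, with a median of 0.29 beside 0.00 over all tested genes. PEG lay wholly above NC for 28 members (56.0%), where this held for 25.6% of all tested genes. The reverse held for 1 member, Mcm3, and for 23.3% of all tested genes. These values, too, are not independent of how the list was drawn up. The differences were small in size. Beside a log2 fold change past 1 the call held for 1 member, Anln (4.41% of tested genes were called so in the higher direction and 7.14% in the lower).

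**Figure D2:**
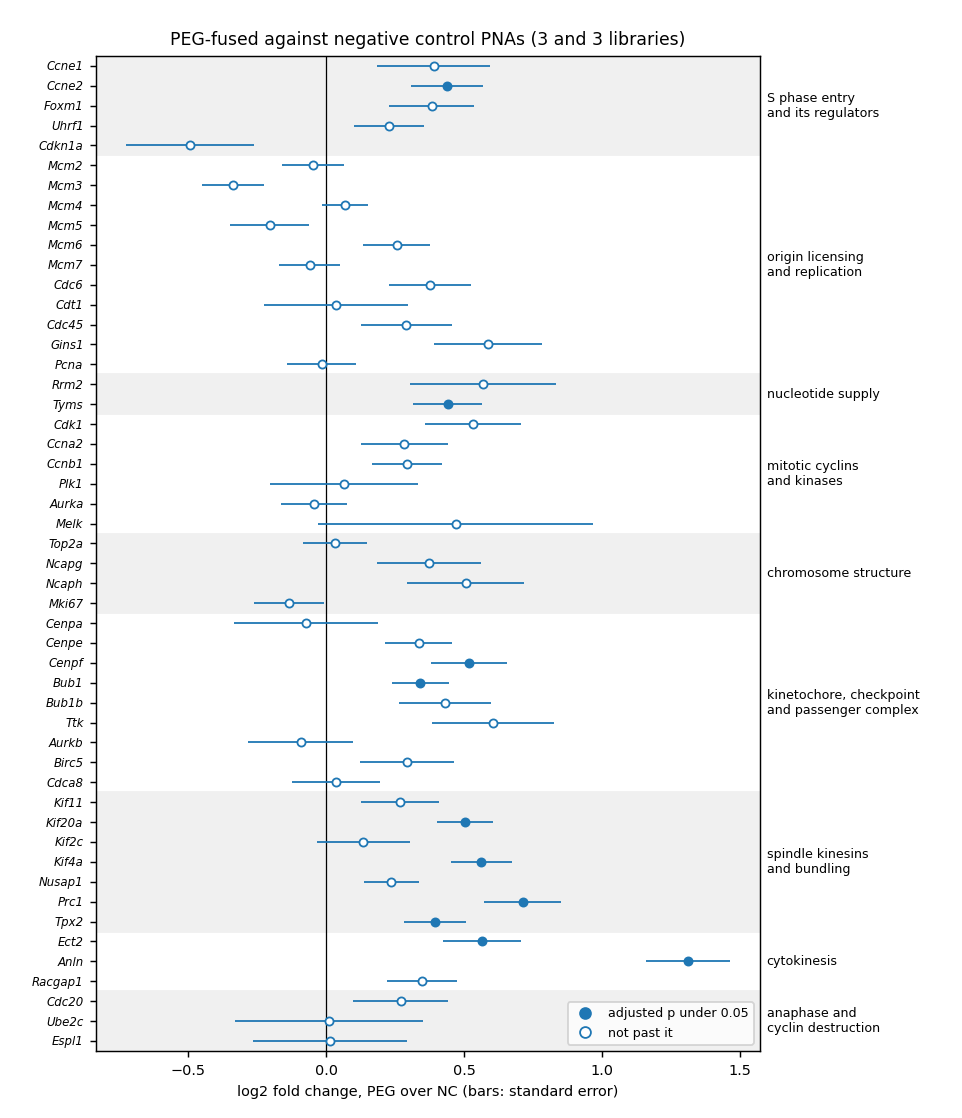
Log2 fold change of each member in PEG over NC with its standard error from limma (3 and 3 libraries), by role. Filled points have an adjusted p under 0.05: they are Anln, Prc1, Ect2, Kif4a, Cenpf, Kif20a, Tyms, Ccne2, Tpx2 and Bub1, all above 0, while the MCM genes, Pcna, Top2a and Mki67 lie on both sides of 0.

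The members of S phase entry were Ccne1, Ccne2, Foxm1, Uhrf1 and Cdkn1a, and 1 of these 5 was called. Counts of calls by role, here and below, rest on few genes each and stand beside 15.0% of all tested genes called higher. Ccne2, cyclin E2, which activates CDK2 at the start of S phase, was at 584, 619.8 and 534 normalized counts in PEG, 466, 425 and 393 in NC, and 224 and 280.2 in Unop. PEG lay wholly above NC, and both lay above Unop (log2 fold change PEG against NC 0.44 ± 0.13 SE, adjusted p = 0.0389). Uhrf1, which carries DNA methylation over to the new strand, was at 1110.4, 1349 and 1346 in PEG, 1119.7, 1152 and 975 in NC and 48.3 and 41.3 in Unop. PEG1 fell within the range of NC, and the difference did not pass (0.23 ± 0.13, adjusted p = 0.217). Ccne1 and Foxm1, the factor that drives late cell cycle genes, had their PEG libraries wholly above NC with log2 fold changes of 0.39 and 0.38, neither called.

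Cdkn1a, the p21 inhibitor of cyclin-dependent kinases, is the member that acts against division. Its normalized counts were 2402, 2567 and 1813 in PEG, 3826, 2369 and 3438 in NC, and 243 and 155 in Unop. All PNAs lay far above Unop, by a ratio of means of 11.4 in PEG and 16.1 in NC. NC2 lay between PEG1 and PEG3 on this gene, so that PEG and NC overlapped (log2 fold change -0.49 ± 0.23, adjusted p = 0.147). It had the lowest log2 fold change of the 50 members in PEG against NC.

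Of the 11 members for licensing and replication none was called. Their median log2 fold change was 0.03, and that of the 6 MCM subunits was -0.05, with 2 of 6 above 0. Mcm3, a subunit of the replicative helicase, was at 1463, 1649 and 1680.1 in PEG, 2176, 2150.5 and 1754 in NC, and 285 and 258 in Unop. Every NC library was above every PEG library, and the adjusted p stood just past the threshold (-0.34 ± 0.11, adjusted p = 0.0540). It was called lower by edgeR, by DESeq2 and without NC3.

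Cdt1, which loads the helicase, had 228, 279 and 311 normalized counts in PEG, 279, 294 and 225 in NC, and 59.0 and 30.0 in Unop, and PEG and NC overlapped throughout (0.03 ± 0.26). Pcna was at 5053, 4589 and 4994 in PEG, 5562, 5197 and 4155 in NC, and 4578 and 3841 in Unop. PEG and NC overlapped, PEG2 stood barely above Unop1 and NC3 stood below it (PEG against NC -0.02 ± 0.12, adjusted p = 0.934). Gins1, a subunit of the active helicase complex, and Cdc6, a licensing factor, were wholly higher in PEG with log2 fold changes of 0.59 and 0.38, and neither passed the adjusted threshold.

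Both enzymes of nucleotide supply were wholly higher in PEG. Tyms, thymidylate synthase, was at 639, 615 and 589 in PEG, 519, 403 and 442 in NC and 256 and 230.1 in Unop, and it was called (0.44 ± 0.12, adjusted p = 0.0314). Rrm2, the regulated subunit of ribonucleotide reductase, was at 807, 1060.2 and 1068 in PEG, 648, 698 and 618 in NC and 41.9 and 18.8 in Unop. Its difference was larger, but it did not pass (0.57 ± 0.26, adjusted p = 0.142): the fit shares 1 spread over the 3 groups, and the Unop nerves differed more than the PNAs on this gene. With only PEG and NC in the fit, both were called.

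Of the 6 mitotic cyclins and kinases none was called and 4 had PEG wholly above NC. Cdk1, the kinase that starts mitosis, was at 1927, 2099 and 1985 normalized counts in PEG, 1426, 1395 and 1335 in NC, and 106.2 and 62.5 in Unop. The lowest PEG library was above the highest NC library by more than the spread within either group, and the adjusted p fell just outside the threshold (0.53 ± 0.17, adjusted p = 0.0505). It was called in 9 of the 17 alternative fits, among them edgeR, DESeq2 and the fit of PEG and NC alone. Plk1, the polo kinase, was at 356, 639 and 461 in PEG, 449, 558 and 367 in NC and 40.8 and 26.3 in Unop, with PEG and NC interleaved (0.06 ± 0.27). The cyclins Ccna2 and Ccnb1 had log2 fold changes of 0.28 and 0.29, and Aurka, a kinase of the spindle poles, -0.04.

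Chromosome structure was represented by Top2a, Mki67 and the condensin subunits Ncapg and Ncaph. Top2a, the topoisomerase that untangles sister chromatids, was at 3619, 3782 and 3807 in PEG, 3617, 3933 and 3437 in NC and 105 and 78.8 in Unop. Mki67, the antigen Ki-67 used to mark cycling cells, was at 2972, 3634 and 3707 in PEG, 3642, 4330.0 and 3361 in NC and 182 and 203 in Unop. On both genes the PNA groups overlapped, with log2 fold changes of 0.03 ± 0.11 and -0.13 ± 0.13 in PEG against NC, while both groups stood far above Unop. Ncaph was at 902, 1081 and 1027 in PEG, 734, 755 and 632 in NC and 88.0 and 47.5 in Unop, without overlap but not past the threshold (0.50 ± 0.21, adjusted p = 0.111).

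Of the 9 members of the kinetochore, the checkpoint and the chromosomal passenger complex, 2 were called, Cenpf and Bub1. Cenpf was at 1857, 2233 and 2219 in PEG, 1412, 1567 and 1418 in NC, and 37.6 and 27.5 in Unop. PEG lay wholly above NC (0.52 ± 0.14, adjusted p = 0.0254). Bub1, a kinase of the checkpoint, had a log2 fold change of 0.34 ± 0.10 (adjusted p = 0.0415). Cenpe, Bub1b, Ttk and Birc5 were also wholly higher in PEG, with log2 fold changes between 0.29 and 0.60, and were not called.

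The members of the passenger complex had unequal values. Cdca8, or borealin, was at 635, 786 and 779.5 in PEG, 710.4, 786 and 648 in NC, and 117 and 83.8 in Unop, with full overlap of the PNA groups (0.03 ± 0.16). Aurkb, its kinase, had a log2 fold change of -0.09, and Birc5, or survivin, 0.29. Cenpa, the histone variant of the centromere, had -0.07.

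Of the 7 members of the spindle group 4 were called, and all 7 had a log2 fold change above 0. Kif4a, a kinesin of the spindle midzone, was at 971, 1073 and 1087 normalized counts in PEG, 694, 729 and 695 in NC, and 22.5 and 25.0 in Unop (0.56 ± 0.11, adjusted p = 0.00748). Prc1, which bundles the midzone microtubules and binds Kif4a there, was at 2356, 3005 and 2500.0 in PEG, 1543, 1580.3 and 1651 in NC, and 111 and 80.0 in Unop (0.71 ± 0.14, adjusted p = 0.00759). Kif20a, a kinesin of the same midzone, was at 1679, 1648 and 1681 in PEG, 1247, 1201 and 1092 in NC and 317 and 389 in Unop (0.50 ± 0.10, adjusted p = 0.00852). On each of these genes every PEG library lay above every NC library, and the gap between the groups was wider than the range within NC. Kif20a had the smallest spread of the 50 members within PEG, a coefficient of variation of 1.10%, and Kif4a the smallest within NC, 2.86%.

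Tpx2, which builds spindle microtubules near the chromosomes, was the remaining call of the group (0.39 ± 0.11, adjusted p = 0.0313). Kif11, the motor that separates the poles, and Nusap1 were wholly higher in PEG but not called (0.27 and 0.23). Kif2c, a microtubule depolymerase at the centromere, was at 655, 772 and 805 in PEG, 639, 823 and 586 in NC, and 71.9 and 92.6 in Unop. NC2 was above all PEG libraries on this gene, so that the groups overlapped (0.13 ± 0.17).

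The cytokinesis group had the largest differences, with a median log2 fold change of 0.56 and 2 of 3 called. Anln, anillin, the scaffold of the contractile ring, was at 1138, 1422 and 1201 normalized counts in PEG, 453, 456 and 615 in NC, and 70.8 and 70.0 in Unop. The lowest PEG library, PEG1, lay far above the highest NC library, NC3, and all PNAs lay above Unop. PEG averaged 1254 ± 149 (SD, n = 3) and NC 508 ± 92.9 (SD, n = 3), a ratio of 2.47 (log2 fold change 1.31 ± 0.15, adjusted p = 0.00108). With each PEG or NC library left out in turn, or either Unop nerve, the log2 fold change stayed between 1.22 and 1.45. Its promoter held 2 CHR matches, beginning 31 and 24 bases before the start, and no CCAAT box. Over the 40 members with a promoter, those with and without a CHR had similar log2 fold changes in PEG against NC. The median was 0.29 in the 19 with a CHR and 0.27 in the 21 without, and 5 and 3 of them were called higher. Kif20a, called in all 17 alternative fits, held no CHR. The part of the motif in these differences was not tested.

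Ect2, the exchange factor that activates RhoA at the division plane, had a log2 fold change of 0.56 ± 0.14 (adjusted p = 0.0197) with PEG wholly above NC. Racgap1, which recruits Ect2 as part of the centralspindlin complex, was at 1071, 1319 and 1133 in PEG, 929, 1025 and 815 in NC and 90.1 and 97.6 in Unop, without overlap and not called (0.35 ± 0.13, adjusted p = 0.0720). None of the 3 members of anaphase and cyclin destruction was called. Cdc20, an activator of the anaphase-promoting complex, was at 653, 844 and 759 in PEG, 575, 724 and 573 in NC and 172 and 121 in Unop, overlapping at NC2 (0.27 ± 0.17). Ube2c, its ubiquitin-conjugating enzyme, was at 693, 918 and 860.2 in PEG, 848, 915 and 692 in NC and 51.5 and 17.5 in Unop (0.01 ± 0.34), and Espl1, separase, had a log2 fold change of 0.01.

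**Figure D3:**
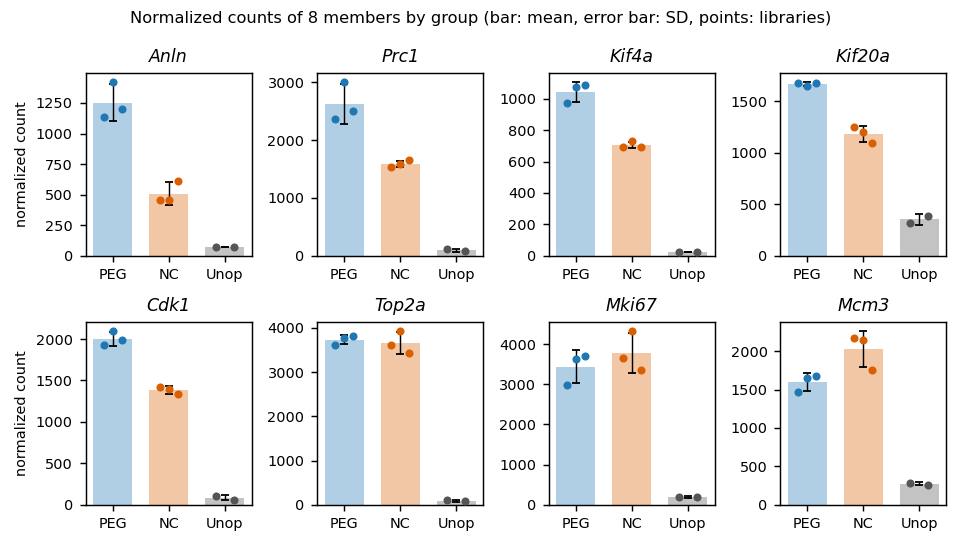
Normalized counts of 8 members, with bars for the mean, error bars for the SD and a point per library (PEG and NC n = 3, Unop n = 2). Anln, Prc1, Kif4a, Kif20a and Cdk1 have PEG wholly above NC, Top2a and Mki67 have PEG and NC overlapping at a level far above Unop, and Mcm3 has NC wholly above PEG.

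The 18 members with S phase roles had a median log2 fold change of 0.24 in PEG against NC, with 2 called higher. The 32 with mitotic roles had 0.31, with 8 called higher, where 15.0% of all tested genes were called so. Without PEG2, PEG3 or NC3 only 4 of the 50 members were called higher. In summed normalized counts, mitotic over S phase members gave a ratio of 1.55 to 1.68 in PEG, 1.19 to 1.40 in NC and 0.338 to 0.344 in Unop. A few genes weigh heavily in the S phase sum. Pcna, which differed little between groups, made 4578 of 9191 in Unop1, and the inhibitor Cdkn1a made 3826 of 27753 in NC1. The summed cytokinesis members over the summed MCM subunits gave 0.252 to 0.297 in PEG, 0.150 to 0.183 in NC and 0.0662 to 0.0674 in Unop. The ratio of Anln to Mki67 was 0.324 to 0.391 in PEG, 0.105 to 0.183 in NC and 0.346 to 0.388 in Unop, so that on this ratio NC, not PEG, stood apart from Unop. Cytokinesis was the role with the highest median log2 fold change in PEG against NC (0.56), and the MCM subunits had -0.05. Anln had the highest value of the members (1.31), and Mki67 had -0.13. The cytokinesis over MCM and Anln over Mki67 ratios pair these, so their separation of PEG from NC repeats those values and adds no support. All these ratios depend on transcript length and are compared only between libraries, and the difference between roles was not tested. In all, the members made up 0.191% to 0.215% of normalized counts in PEG, 0.163% to 0.175% in NC and 0.0273% to 0.0287% in Unop.

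Within a group the members largely shared the order of the libraries. PEG1 was the lowest PEG library for 45 of the 50 members and PEG2 the highest for 30, while NC3 was the lowest NC library for 39 and NC2 the highest for 28. No such count was made over all tested genes, so whether this order is particular to the members is not known. The median coefficient of variation of the members was 9.62% in PEG and 11.0% in NC, beside 6.86% and 9.99% over the 9395 genes in the same range of levels. Among the cell type markers, all 10 T cell markers were called lower in PEG than in NC, and none was at 0 in any library. Of the 8 macrophage markers 5 were called lower, of the 8 Schwann cell markers 5 were called higher and 1 lower, and of the 7 fibroblast markers 3 were called higher.

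The T cell sum did not order the libraries within a group the same way as the members did. PEG2 had the lowest T cell sum of the PEG libraries, 2234, and was highest for 30 members. NC2 had the highest T cell sum, 46814, and was the highest NC library for 28 members. The count of members called higher was smaller without either muscle-rich library. It was 8 without NC1 and 4 without NC3, where 13.7% and 11.9% of all genes were called higher. It was also smaller without each other PNA library: 7 without PEG1 or NC2 (11.1% and 11.3% of all genes) and 4 without PEG2 or PEG3 (8.28% and 9.76%). Schwann cell sums were 77032 to 85300 in PEG, 28746 to 66159 in NC, and 1.34e+06 and 1.58e+06 in Unop. Fibroblast sums were 595658 to 877730 in PEG, 339694 to 514565 in NC, and 496588 and 372576 in Unop. Both sums were thus higher in PEG than in NC, but the Schwann cell sum was highest in Unop, where the members were lowest. Within PEG both sums were lowest in PEG1, as most members were. Within NC the Schwann cell sum was also lowest in NC3, but the fibroblast sum was highest there. The part of any cell type in the members' differences was not tested.

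**Figure D4:**
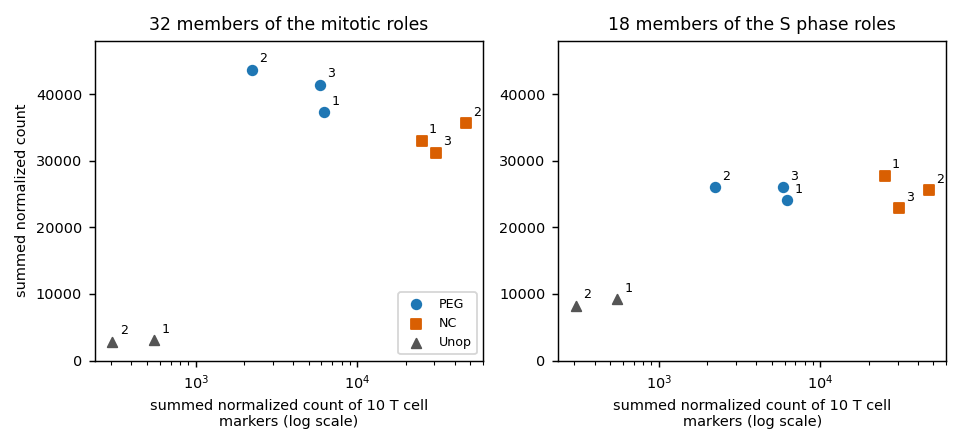
Summed normalized count of the 32 mitotic members (left) and the 18 S phase members (right) against the summed count of 10 T cell markers on a log scale, a point per library with its replicate number. The mitotic sums lie between 37272 and 43668 in PEG and between 31204 and 35676 in NC, the S phase sums of PEG and NC overlap, and the T cell sums of the groups lie apart.

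A further 172 genes of the cell cycle that are not members were listed by function, and 168 were found, on 169 gene identifiers. In PEG against Unop 117 (69.2%) were called higher and 19 (11.2%) lower, where 29.1% and 28.6% of all tested genes were. In NC against Unop 112 (66.3%) were called higher and 27 (16.0%) lower, where 32.2% and 32.3% of all tested genes were. In PEG against NC 26 (15.4%) were called higher, near the 15.0% of all genes, and 9 (5.33%) lower, where 13.9% of all genes were. The count of 26 fell to 11 without PEG2, 15 without NC3, 16 without PEG3 and 17 without NC2, where 8.28%, 11.9%, 9.76% and 11.3% of all genes were called higher. These comparisons share libraries and the values are given side by side.

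Mitosis genes outside the list gave 10 of 59 called higher in PEG against NC and none lower, and replication genes 3 of 40 higher and 1 lower. Over all tested genes 15.0% were called higher and 13.9% lower, so the mitosis genes were near the share of all genes in the higher direction. The same shares stand beside the counts of the groups below. Ckap2, a spindle protein, was at 1039, 1217 and 1162 normalized counts in PEG, 709, 781 and 714 in NC, and 81.6 and 91.3 in Unop, wholly higher in PEG (0.63 ± 0.11, adjusted p = 0.00455). Orc3, a subunit of the origin recognition complex, was at 894, 914 and 808 in PEG, 1074, 1075 and 1153 in NC, and 852 and 873 in Unop, and it was lower in PEG (-0.34 ± 0.09, adjusted p = 0.0215). Of the 15 genes of the anaphase-promoting complex 2 were called higher, Cdc16 and Anapc2. Cdc16, a core subunit, was at 2588, 2740.1 and 2303 in PEG, 1898, 1992 and 2018 in NC, and 1776 and 1639.7 in Unop, wholly higher in PEG (0.37 ± 0.09, adjusted p = 0.0167).

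Among the regulators of G1 the median log2 fold change in PEG against NC was 0.11, and the largest difference was that of Ccnd1. Ccnd1, cyclin D1, which with CDK4 releases cells from G1, was at 16778, 17065 and 18480.1 normalized counts in PEG, 8689, 6630.0 and 6469.9 in NC and 5998 and 5192 in Unop. PEG lay far above NC (1.28 ± 0.13, adjusted p = 0.000644), and NC lay slightly above Unop (0.37 ± 0.14). Its partner Cdk4 was also called higher (0.54 ± 0.09, adjusted p = 0.00369), as was Mycn at a low level, and the remaining 11 of the 14 genes of this group were not called. Cdk4, Mycn and the genes below that come without per-library values were named after their values were seen.

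The E2F group was split, with 2 called higher and 3 lower of 16. E2f2, an activating E2F, was at 266, 199 and 302 in PEG, 670.2, 1085 and 713 in NC, and 84.8 and 58.8 in Unop, lower in PEG (-1.67 ± 0.25, adjusted p = 0.00238) and above Unop in all PNAs. E2f5, a repressing E2F, was at 392, 402 and 398 in PEG, 292, 252 and 267 in NC, and 371 and 413 in Unop, so that NC alone lay lower (0.56 ± 0.11, adjusted p = 0.00868). E2f4 and E2f6, also of the repressing kind, were called lower in PEG, by log2 fold changes of -0.42 and -0.45, and Mybl1 higher by 0.76.

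Of the 25 inhibitors and brakes of the cycle 6 were called higher and 5 lower in PEG against NC. Gadd45a, a stress-induced inhibitor, was at 4609, 4736 and 3888 in PEG, 1202, 947 and 1114 in NC, and 1784 and 1302 in Unop, the largest difference of these lists (2.02 ± 0.15, adjusted p = 0.000343). Cdkn2b, the p15 inhibitor of CDK4 and CDK6, had a log2 fold change of 1.46 ± 0.19 (adjusted p = 0.00145). It was level with Unop in PEG (0.02 ± 0.21) and lower than Unop in NC (-1.44 ± 0.21).

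Btg2, an antiproliferative gene, was at 1042, 885 and 1067 in PEG, 1714, 2578 and 2101 in NC and 1078 and 911 in Unop. NC alone stood above the other groups (-1.08 ± 0.16, adjusted p = 0.00223). Rbl2 and Ccng2, which are known to rise in resting cells, were lower in PEG than in NC by log2 fold changes of -0.83 and -0.59. Cdkn1b, the p27 inhibitor that holds resting cells out of the cycle, was at 1919, 1847 and 1966 in PEG, 2161, 2438 and 2167 in NC and 9454 and 11938 in Unop. It was lower than Unop in PEG (-2.47 ± 0.11) and in NC (-2.24 ± 0.11), both called, and the PEG libraries lay just under the NC libraries (-0.24 ± 0.10, adjusted p = 0.118). The member Cdkn1a stood above Unop in all PNAs, so that these inhibitors of the same family differed from Unop in opposite directions.

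**Figure D5:**
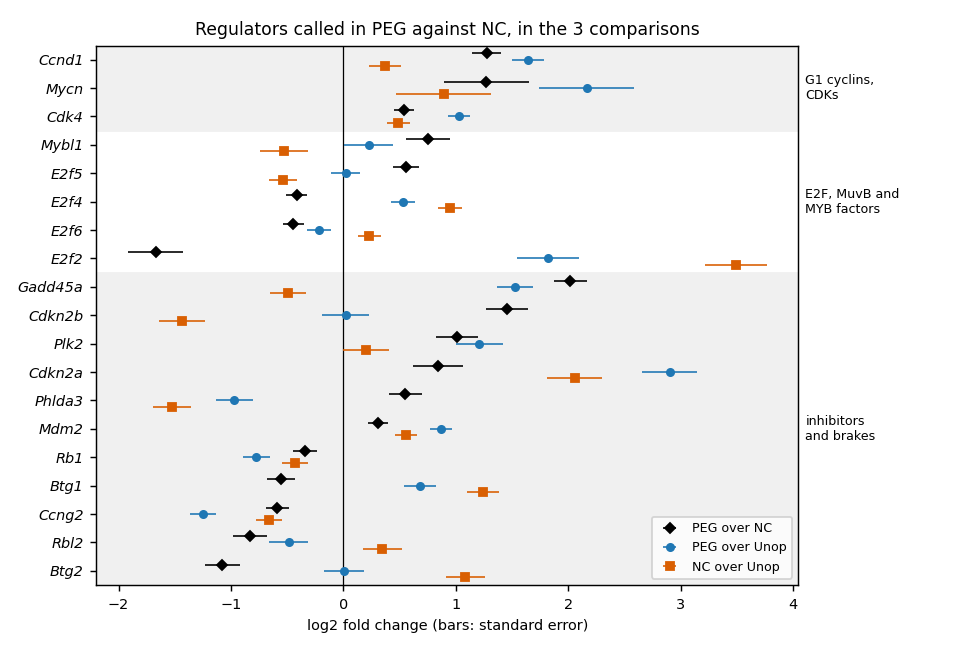
Log2 fold changes with standard errors from limma for the 19 regulators (G1 cyclins and CDKs, E2F and MYB factors, inhibitors and brakes) called in PEG against NC, with the values against Unop beside them (PEG and NC n = 3, Unop n = 2). Gadd45a, Cdkn2b and Ccnd1 lie to the right in PEG over NC and E2f2 and Btg2 to the left, while against Unop E2f2 lies to the right in both PNA groups.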

How the data were processed

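Poly-A-enriched libraries from 8 nerves were sequenced. The deposited signal values used here are normalized read counts, not raw counts: the authors mapped reads with Tophat2 (Rnor 6.0), summed them over genes in HTSeq-count and scaled each library by its DESeq2 size factor. Whether the counting used strand is not given in the sources used here. The deposited table also holds the authors' own comparisons (fold changes, p-values), which were not used. Each library's values were multiples of 1 constant, so whole reads could be recovered (100% of values, tolerance 0.001), and size factors ran from 0.800 to 1.12.

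Groups followed the sample labels. The main test was limma 3.58.1 (trend, two-sided) on log2(normalized count + 1), a group-means model of the 8 libraries with Benjamini-Hochberg adjustment over the 16478 genes that reached 10 normalized counts in 2 or more libraries. Changes of low genes are understated by the pseudocount of 1, and 1 spread per gene serves all groups, although Unop has 2 nerves. Errors of fold changes are standard errors. The script was tested on simulated data.

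Alternatives were edgeR 4.0.16 and DESeq2 1.42.0 on the recovered reads, TMM factors, a pseudocount of 8, no filter or a filter of 50 counts, a robust fit, a replicate block, a log2 fold change past 1, the 2 groups alone and each library left out. Members and gene lists were chosen with earlier results of these data known. Values in every library are given for Top2a, Kif4a, Cenpf, Cdk1, Uhrf1, Mki67, Cdkn1a, Pcna, the members with the smallest and the largest p of each role, and, of the other lists, for the called gene with the smallest p in each direction; Kif20a, Prc1 and Cdkn1b were added after their values were seen. A gene that this rule names is not reported here. Markers of B cells, endothelium, adipocytes and red blood cells were also listed: in PEG against NC 6 of 6, 1 of 6, 3 of 5 and 1 of 3 tested were called lower and none higher. R 4.3.3 and Python 3.11.15 were used.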

Additional observations from a re-analysis of the deposited data

How the results depend on the processing

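The 10 members called higher in PEG against NC became 16 with edgeR, 18 with DESeq2 and 19 with the 2 groups alone. Of all genes 15.5%, 16.9% and 16.0% were called higher in these fits. A log2 fold change past 1 left 1 member, where 4.41% of all genes were called so. With each library left out the count ran from 4 to 18, where the share of all genes ran from 8.28% to 16.0%. The count of members called lower was 1 with edgeR and 1 with DESeq2, where 14.7% and 16.8% of all genes were. It was 0 to 1 with libraries left out, where 8.47% to 14.8% of all genes were called lower. For the other cell cycle genes the 26 called higher ran from 11 to 31 and the 9 called lower from 7 to 10 with libraries left out. The same shares of all genes stand beside them. A log2 fold change past 1 left 5 and 2, where 4.41% and 7.14% of all genes were called so. Anln, Prc1, Kif4a and Kif20a kept their call in all 17 alternative fits, and only Anln kept it with a log2 fold change past 1. The members' median against Unop was 3.53 in PEG and 3.23 in NC with a pseudocount of 8, and ran from 3.50 to 3.74 and from 3.27 to 3.42 with libraries left out. Members level between PEG and NC changed sign with libraries left out: Top2a ran from -0.014 to 0.083, Pcna from -0.14 to 0.069, Cdt1 from -0.081 to 0.16, Plk1 from -0.16 to 0.27, Cdca8 from -0.034 to 0.14 and Ube2c from -0.11 to 0.13. The cause of these changes was not tested. Counts against Unop of the other genes stayed within 1.5 times under each alternative run.

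The replicate numbers were not taken to pair the samples, since not all same-numbered deviations of PEG and NC correlated above 0.1 (0.108, 0.109 and -0.050). Those with the 2 Unop nerves correlated at 0.154 and 0.136 in PEG and at 0.152 and 0.157 in NC. With the replicate number as a block, 7 members were called higher, where 12.8% of all genes were, and 0 lower, 22 and 8 of the other genes were called, Ccne2, Cenpf, Bub1 and Tpx2 were no longer called, and Cenpe was. Low counts in Unop limit the precision of the differences from it, and Melk rests on 3 reads in Unop2.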
